A study of Mus musculus with 81 samples.

Results

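The genes described here encode the AMPA-type glutamate receptor: the 4 pore-forming subunits Gria1, Gria2, Gria3 and Gria4, and 6 auxiliary proteins, Cacng2, Cacng3, Cacng8, Cnih2, Cnih3 and Shisa9. They were chosen by symbol, and all 10 were found among the 57010 gene identifiers of the count matrices. The libraries came from male Ts65Dn mice (Ts), which carry an extra segment of mouse chromosome 16 and part of chromosome 17 and model Down syndrome, and from disomic mice of the same breeding (2N), at about 6 MO. CA1 pyramidal neurons (CA1 PNs), CA3 pyramidal neurons (CA3 PNs) and dentate granule cells (DGCs) were taken from the same Nissl-stained sections of rostral hippocampus by laser capture microdissection (LCM). The dams were Ts65Dn females mated with F1 males of C57Bl/6J Eicher and C3H/HeSnJ, so all pups share that mixed background. Dams and pups received chow with 1.1 g/kg choline chloride (ChN) or 5.0 g/kg (ChP, read here as the supplemented diet) until weaning, and all offspring then received the ChN chow. On ChN there were 6 CA1, 6 CA3 and 6 DG libraries of 2N mice and 5, 6 and 6 of Ts mice. On ChP there were 7 of each population from 2N mice and 9, 7 and 9 from Ts mice, which makes 81 libraries from 28 mice.

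AMPA receptors are tetramers that carry most of the fast excitatory current at central synapses, and the mix of subunits sets their conductance and calcium permeability. GluA2, the product of Gria2, makes the channel nearly impermeable to calcium once its mRNA has been edited at the Q/R site of the pore. Transmembrane AMPA receptor regulatory proteins (TARPs, Cacng2, Cacng3 and Cacng8 here), cornichon homologs (Cnih2 and Cnih3) and Shisa9, also known as CKAMP44, bind the receptor and alter its trafficking, gating and recovery from desensitization. In CA1 PNs the receptor is the main postsynaptic carrier of long-term potentiation, and Shisa9 is known from granule cells of the dentate gyrus.

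The pore stretch around the Q/R site is shown because a gene count cannot see the editing of the Gria2 transcript at that site. The sequences below are genomic, in GRCm39 with the Gencode canonical transcripts, and each lies within a single coding exon. Capitals mark the codon of the Q/R site, which encodes glutamine in all 4 genes, and editing of the Gria2 transcript changes the reading of that codon to arginine. Gria1 is read at chr11:57133878-57133940 on the plus strand in exon 11 of 15, and Gria2 at chr3:80614200-80614262 on the minus strand in exon 11 of 16. Gria3 is read at chrX:40699100-40699162 on the plus strand in exon 11 of 14, and Gria4 at chr9:4464119-4464181 on the minus strand in exon 12 of 17.
Gria1: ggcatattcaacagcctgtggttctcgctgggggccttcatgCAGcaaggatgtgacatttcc
Gria2: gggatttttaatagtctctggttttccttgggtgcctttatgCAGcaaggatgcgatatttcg
Gria3: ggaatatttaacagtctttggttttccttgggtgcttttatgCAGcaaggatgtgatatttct
Gria4: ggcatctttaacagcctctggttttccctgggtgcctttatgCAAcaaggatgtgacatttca
The 21 encoded residues are identical in all 4 subunits, while the bases differ. Gria2 and Gria3 share 56 of 63 bases (88.9%), the most of any pair, and Gria1 and Gria2 share 49 (77.8%), the fewest. The deposited values count reads per gene, so they hold nothing on how much of the Gria2 RNA was edited.

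In GRCm39 the members lie on 9 chromosomes, none of them in the triplicated segments. The subunits are at chr11:56902153-57221080 (Gria1), chr3:80588757-80710538 (Gria2), chrX:40489476-40767490 (Gria3) and chr9:4417604-4796326 (Gria4). The TARPs are at chr15:77875948-78004441 (Cacng2), chr7:122269715-122368619 (Cacng3) and chr7:3439199-3464781 (Cacng8). Cnih2 is at chr19:5142891-5148672, Cnih3 at chr1:181180024-181289051 and Shisa9 at chr16:11801977-12088766, the last on the chromosome that supplies the triplicated segment but outside it. Cnih2 overlaps the protein-coding gene Yif1a on the other strand, and the strand setting of the authors' counting is not given in the sources used here, so its count may include reads of Yif1a.

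Library totals ran from 358355 to 4744036 expected counts. All 6 markers of CA1 PNs, all 5 of CA3 PNs and all 6 of DGCs had their highest median in the population of that name. However, 10 of the 27 CA1 libraries were rich in CA2 pyramidal neuron markers (Amigo2, Rgs14, Pcp4, Necab2, Map3k15 and Ccdc3), with a mean over 5 log2 CPM. They were 2 of 6 libraries of 2N ChN, 1 of 5 of Ts ChN, 3 of 7 of 2N ChP and 4 of 9 of Ts ChP. The summed level of these 6 genes was 498 to 1945 CPM in those 10 libraries and 71.0 to 139 CPM in the other 17. Summed CA1 markers were 24.1 to 1120 CPM in the 10 and 1478 to 2219 CPM in the 17, and summed CA3 markers 141 to 636 CPM and 10.6 to 33.6 CPM. The CA1 libraries of mice 17-21 (2N ChN) and 16-272 (Ts ChP) held 24.1 and 30.3 CPM of summed CA1 markers, less than any CA3 library (48.5 to 89.6 CPM), and 554 and 636 CPM of CA3 markers. That of mouse 15-336 (2N ChP) held 124 CPM of CA1 and 537 CPM of CA3 markers, and that of 15-199 (Ts ChP) 409 and 469 CPM. These 4 libraries, with more CA3 than CA1 marker RNA, thus went against their CA1 label by its markers, and they are kept under that label. The CA1 libraries of mice 16-357 (Ts ChN) and 16-90 (2N ChP) held more CA2 than CA1 marker RNA. Their sums were 1401 against 533 CPM and 1279 against 751 CPM. By CA2 markers they too went against the CA1 label, and they are kept under it. The CA3 library of Ts ChP mouse 15-140 held 122 CPM of summed dentate markers, against 3.97 to 21.7 CPM in every other CA3 library. The CA1 library of mouse 17-154, labelled 2N, had a mean of 6.64 log2 CPM over 45 triplicated genes, within the range of the Ts libraries (6.34 to 6.75) and above the other 2N libraries (5.81 to 6.16). The CA3 library of mouse 15-145 is labelled Ts while its other libraries are labelled 2N; its mean of 6.11 lay in the 2N range, and it was grouped as 2N. Calls that change without these libraries are given beside the members or with the description of the CA2-rich libraries.

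Per length, Gria2 and Gria1 were the most abundant members in every population, and the pore subunits differed among themselves by more than an order of magnitude. Over all libraries of CA1 PNs the median level was 381 TPM (transcript share scaled for length and library) for Gria2, 356 for Gria1, 70.0 for Gria3 and 8.63 for Gria4. In CA3 PNs the medians were 350 TPM for Gria2, 270 for Gria1, 71.1 for Gria3 and 11.8 for Gria4. DGCs had medians of 397 TPM for Gria2, 307 for Gria1, 57.4 for Gria3 and 5.72 for Gria4. The ranges of Gria1 and Gria2 over libraries overlapped in each population, as 83.9 to 589 and 87.3 to 518 TPM in CA1 PNs.

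Among the auxiliary genes Cnih2 had the highest median and Cacng8 the next in each population. In CA1 PNs they were followed by Cacng3 (43.5 TPM), Cacng2 (6.22 TPM), Shisa9 (4.16 TPM) and Cnih3 (3.47 TPM), of which the last 3 overlapped in range. CA3 PNs had the same order down to Cacng2, which stood at a median of 22.8 TPM there, and Cnih3 (2.56 TPM) and Shisa9 (1.92 TPM) were not separated by their spread. In DGCs Shisa9 (55.4 TPM) and Cnih3 (45.8 TPM) stood above Cacng3 (33.6 TPM) and Cacng2 (7.78 TPM). The summed TPM of the 6 auxiliary genes was 0.43 ± 0.10 of that of the 4 subunits in CA1 PNs (SD, n = 27), 0.45 ± 0.05 in CA3 PNs (n = 26) and 0.43 ± 0.05 in DGCs (n = 28). That ratio therefore differed less between populations than between libraries of a population.

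**Figure D1:**
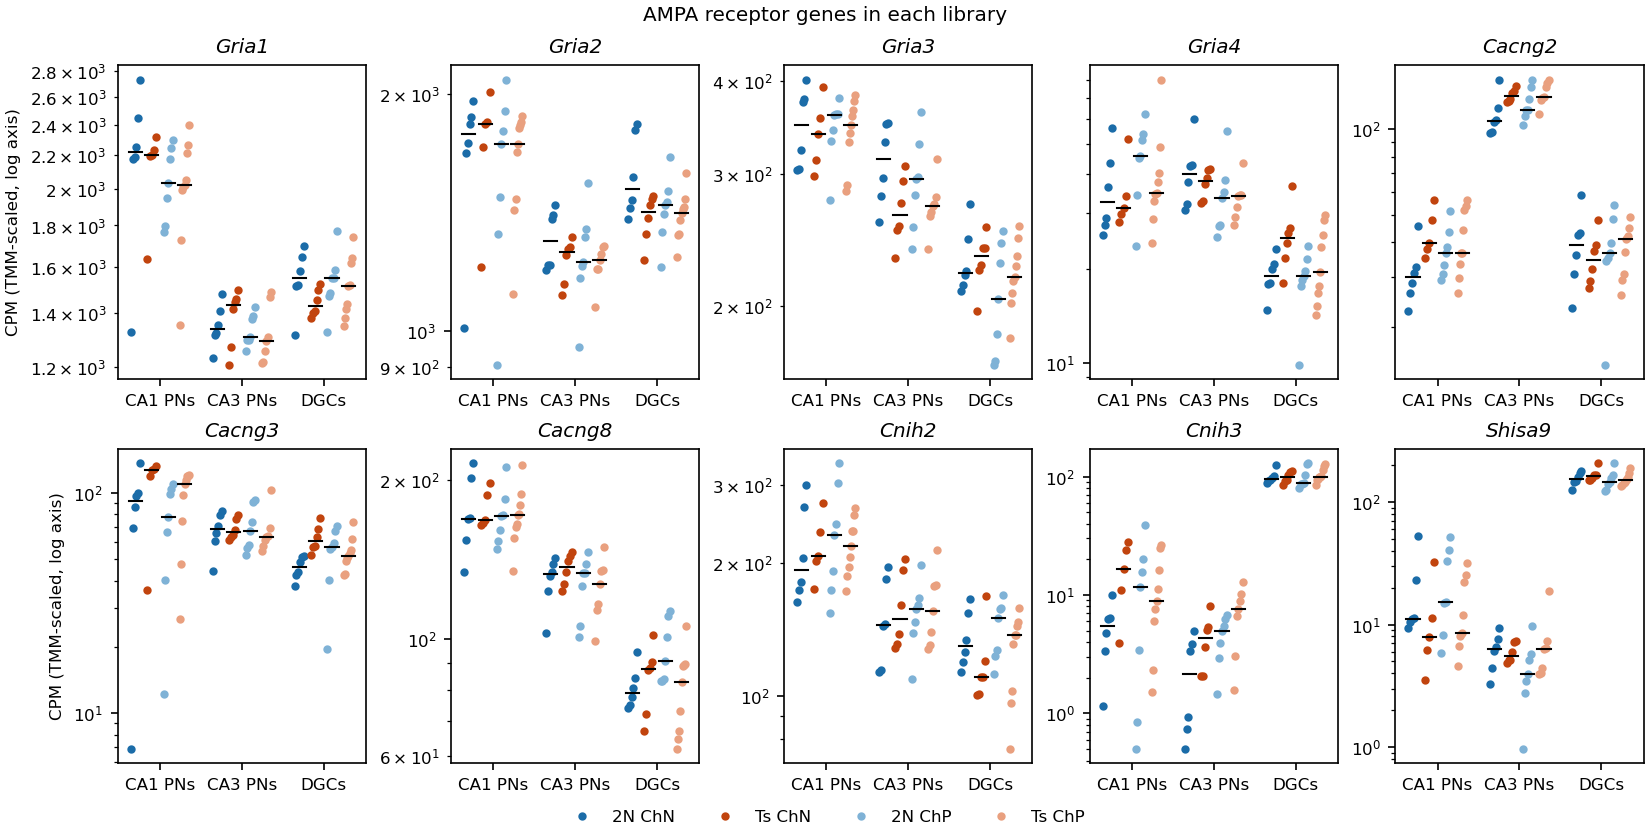
Level of each member in every library, in TMM-scaled CPM on a log axis (values under 0.5 CPM are drawn at 0.5), grouped by population and coloured by genotype and diet, with black lines at the group medians. Cnih3 and Shisa9 lie far higher in DGCs than in CA1 PNs and CA3 PNs, and Cacng2 stands apart in CA3 PNs.

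The populations were compared within each genotype and diet, on levels in TMM-scaled CPM, with 2N ChN as the main group. A member was called where edgeR's quasi-likelihood test gave a Benjamini-Hochberg adjusted p under 0.05 over all genes. CA1 PNs and CA3 PNs differed in 6 members (5 higher and 1 lower in CA1 PNs), where 23.3% of all genes were called, and the median LFC (log2 fold change) of the 10 members was 0.39 against -0.0004 over all genes tested. CA1 PNs and DGCs differed in 7 members (5 higher, 2 lower; 34.3% of all genes), with a median LFC of 0.52 against -0.03. CA3 PNs and DGCs differed in 7 members (4 higher, 3 lower; 43.7% of all genes), with a median LFC of 0.26 against -0.04. In the other groups the pair of CA1 PNs and CA3 PNs had 8 called members in Ts ChN (25.3% of all genes), 5 in 2N ChP (22.9%) and 7 in Ts ChP (24.5%). For CA1 PNs and DGCs these were 8 (33.7%), 7 (31.8%) and 9 (39.3%), and for CA3 PNs and DGCs 7 (44.5%), 7 (40.4%) and 9 (44.2%). The 3 pairs of populations share libraries and mice. In bulk captures, fewer cells of a type and less RNA per cell cannot be told apart.

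Gria1, the subunit whose insertion accompanies potentiation at CA1 synapses, was highest in CA1 PNs. In 2N ChN libraries it ran from 1328 to 2733 CPM in CA1 PNs (median 2222), from 1232 to 1478 CPM in CA3 PNs (median 1338) and from 1316 to 1699 CPM in DGCs (median 1548). All CA1 libraries apart from that of mouse 17-21, at 1328 CPM, were above every CA3 and every DG library of that group. The LFC was 0.70 ± 0.11 (SE; adjusted p = 3.3e-06) against CA3 PNs and 0.47 ± 0.11 (adjusted p = 0.00050) against DGCs. It was called in all 4 genotype and diet groups against both populations, with LFCs of 0.59 to 0.70 and of 0.37 to 0.53. Without the CA2-rich libraries these were 0.69 to 0.83 and 0.47 to 0.62, all called. CA3 PNs had a lower level than DGCs by an LFC of -0.22 ± 0.11 that was not called (adjusted p = 0.083). It was called without the CA1 or the DG library of mouse 17-21 (adjusted p down to 0.0070), and the adjusted p was 0.0498 with mouse as a block. Over the 4 groups this pair was called in 2, and in 3 both with the block and without the CA2-rich libraries. The call in Ts ChP was lost without the CA3 library of mouse 15-140 (LFC -0.19, adjusted p = 0.068).

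Gria2, the subunit that governs calcium permeability, had its lowest median in CA3 PNs. Its 2N ChN levels were 1008 to 1957 CPM in CA1 PNs (median 1779), 1197 to 1445 CPM in CA3 PNs (median 1300) and 1389 to 1828 CPM in DGCs (median 1516). The CA1 range spanned both other ranges because of the library of mouse 17-21. The LFC of CA1 PNs over CA3 PNs was 0.36 ± 0.11 (adjusted p = 0.013), that of CA3 PNs against DGCs -0.30 ± 0.11 (adjusted p = 0.024), and that of CA1 PNs over DGCs 0.06 ± 0.11 (adjusted p = 0.72). The last was called in 2 of the 4 groups, Ts ChN (LFC 0.28, adjusted p = 0.010) and Ts ChP (LFC 0.21, adjusted p = 0.017), and each of the first 2 pairs in 3 of 4, with the same direction in all groups. With mouse as a block, both of these pairs were called in all 4. The call between CA3 PNs and DGCs was lost in 5 of 18 fits with a single library left out, the CA3 libraries of mice 15-147, 17-154 and 17-21 and the DG libraries of 15-147 and 17-154, with an adjusted p of at most 0.079.

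Gria3, an X-linked subunit, was higher in both pyramidal populations than in DGCs. In 2N ChN it ran from 304 to 401 CPM in CA1 PNs (median 349), from 259 to 351 CPM in CA3 PNs (median 314) and from 209 to 274 CPM in DGCs (median 221). The CA1 and DG ranges did not overlap, and 5 of 6 CA3 libraries were above all DG libraries. LFCs were 0.56 ± 0.10 for CA1 PNs over DGCs (adjusted p = 2.8e-05) and 0.40 ± 0.10 for CA3 PNs over DGCs (adjusted p = 0.0015), the second of which was not called with library totals in place of TMM (LFC 0.21, adjusted p = 0.11). CA1 PNs exceeded CA3 PNs by 0.16 ± 0.10 (adjusted p = 0.27). Over the 4 groups the calls were 4 for CA1 PNs against DGCs, 3 for CA3 PNs against DGCs and 2 for CA1 PNs against CA3 PNs. With mouse as a block CA3 PNs against DGCs was called in all 4.

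Gria4, the subunit of lowest level here and one that is abundant in many interneurons, was also higher in pyramidal neurons. Its 2N ChN levels were 25.6 to 56.1 CPM in CA1 PNs (median 32.8), 30.8 to 59.9 CPM in CA3 PNs (median 40.1) and 14.7 to 23.1 CPM in DGCs (median 19.0). Neither pyramidal range overlapped that of DGCs. The LFCs over DGCs were 0.94 ± 0.21 in CA1 PNs (adjusted p = 0.00057) and 1.10 ± 0.20 in CA3 PNs (adjusted p = 2.7e-05), and CA1 PNs differed from CA3 PNs by -0.16 ± 0.19 (adjusted p = 0.61). The call over DGCs was made in all 4 groups for CA3 PNs, with LFCs down to 0.51, and in 3 of 4 for CA1 PNs. In Ts ChN the CA1 difference was 0.41 (adjusted p = 0.076), and 0.22 (adjusted p = 0.40) without the CA2-rich library. Without such libraries the LFC in 2N ChN was 0.66 (adjusted p = 0.017). Over all libraries, 6 of 7 inhibitory neuron markers had a higher median in CA1 PNs than in DGCs, and 6 in CA3 PNs. Sst and Vip had a median of 0 in DGCs. The exception was Gad1, the most abundant of the 7, with medians of 108 CPM in CA1 PNs, 75.8 CPM in CA3 PNs and 181 CPM in DGCs. The summed level of the 7 was therefore highest in DGCs, at a median of 233 CPM (170 to 327 CPM), against 226 CPM (144 to 448 CPM) in CA1 PNs and 190 CPM (124 to 412 CPM) in CA3 PNs. In 2N ChN, summed vascular markers were 10.5 to 18.8 CPM in DGCs, below the 21.1 to 42.4 CPM of CA1 PNs and the 25.1 to 56.5 CPM of CA3 PNs, and oligodendrocyte precursor markers were 5.68 to 18.1, 20.8 to 75.6 and 10.7 to 20.5 CPM in the same order. The part of these markers in the Gria4 difference was not tested.

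As shares of the summed TPM of the 4 subunits, Gria1 made up 44.4% ± 4.60 in CA1 PNs. It was 37.3% ± 3.25 in CA3 PNs and 38.9% ± 1.91 in DGCs of 2N ChN mice (SD, n = 6). For Gria2 the shares were 45.2% ± 3.18, 50.2% ± 2.90 and 52.7% ± 2.15, for Gria3 9.08% ± 2.41, 10.6% ± 1.93 and 7.74% ± 0.84, and for Gria4 1.23% ± 0.65, 1.87% ± 0.44 and 0.72% ± 0.21. The Gria1 share was higher in CA1 PNs than in CA3 PNs in 6 of 6 mice, by 7.18 percentage points, and higher than in DGCs in 6 of 6 mice, by 5.55 points. The Gria2 share was 7.41 points higher in DGCs than in CA1 PNs, again in 6 of 6 mice. The shares of Gria3 and Gria4 were higher in CA3 PNs than in DGCs in 6 of 6 mice, by 2.90 and 1.15 points. Each of these 5 differences gave p = 0.03125 in an exact paired permutation test (two-sided), the smallest that 6 mice allow, and an adjusted p of 0.075 over 12 tests, so none of the 12 passed the adjusted threshold. The other groups were described without a test, in the order 2N ChP, Ts ChN and Ts ChP. The Gria1 share of CA1 PNs was above that of CA3 PNs in 7 of 7, 5 of 5 and 7 of 7 mice. It was above that of DGCs in 6 of 7, 5 of 5 and 6 of 9. The Gria2 share of DGCs was above that of CA1 PNs in 7 of 7, 5 of 5 and 8 of 9. CA3 PNs were above DGCs in 6 of 7, 4 of 6 and 6 of 7 for Gria3, and in all for Gria4.

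**Figure D2:**
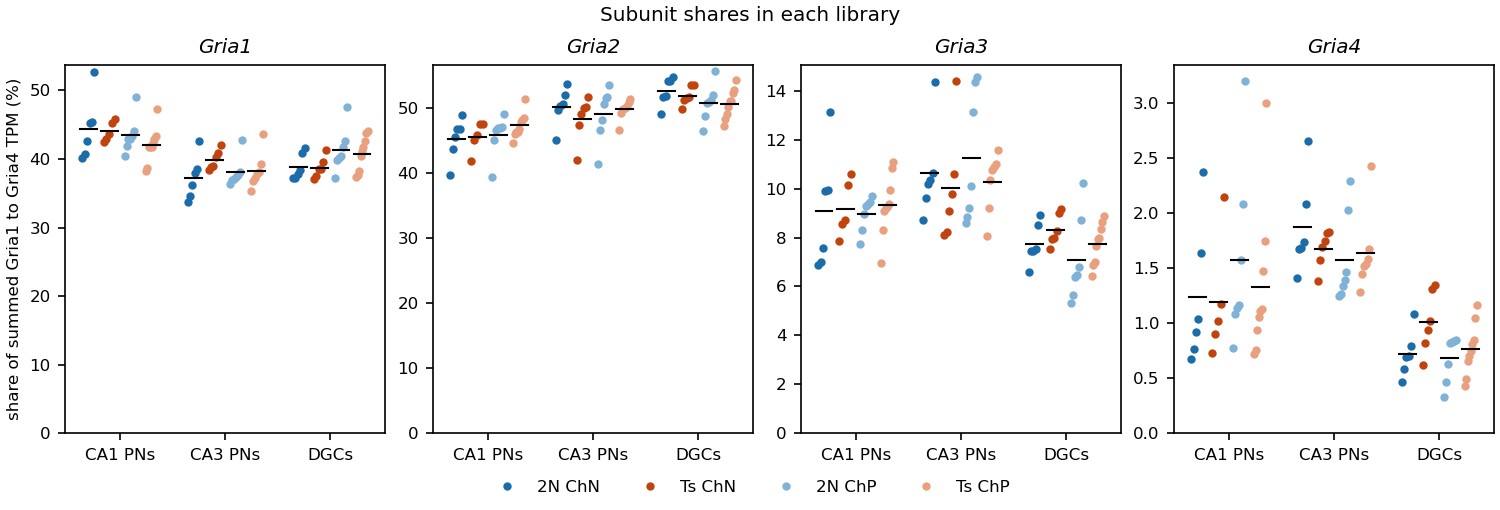
Share of each subunit in the summed Gria1 to Gria4 TPM of a library (percent, y axis from 0) by population, with points for libraries coloured by genotype and diet and black lines at group means. The Gria1 share has its highest group means in CA1 PNs, from 42.0% to 44.4%, and the Gria4 share its lowest in DGCs, from 0.68% to 1.01%.

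The TARPs separated the populations in different ways. Cacng2, which encodes stargazin, marked CA3 PNs. Its 2N ChN levels were 22.8 to 45.7 CPM in CA1 PNs (median 30.0), 97.2 to 149 CPM in CA3 PNs (median 107) and 23.3 to 58.8 CPM in DGCs (median 39.1). Every CA3 library was above every CA1 and every DG library. Summed oligodendrocyte markers separated the same libraries, at 303 to 461 CPM in CA3 PNs against 115 to 271 CPM in CA1 PNs and 154 to 224 CPM in DGCs, and summed astrocyte markers were 236 to 354, 194 to 246 and 169 to 218 CPM. Their part in the Cacng2 difference was not tested. CA1 PNs were lower than CA3 PNs by an LFC of -1.84 ± 0.17 (adjusted p = 6.7e-11), and CA3 PNs were higher than DGCs by 1.50 ± 0.16 (adjusted p = 1.1e-09). Both calls were made in all 4 groups, with LFCs of -1.84 to -1.60 and of 1.50 to 1.88. CA1 PNs and DGCs were called different in none of the 4, with LFCs from -0.34 to 0.28, although in 2N ChN the adjusted p was 0.048 (LFC -0.49) without the CA1 library of mouse 17-154.

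Cacng8, the TARP known for its enrichment in hippocampus, fell in steps from CA1 PNs to CA3 PNs to DGCs. In 2N ChN it ran from 134 to 215 CPM in CA1 PNs (median 169), 103 to 142 CPM in CA3 PNs (median 133) and 74.0 to 94.7 CPM in DGCs (median 79.2). The DG range overlapped neither of the others. LFCs were 0.42 ± 0.11 for CA1 PNs over CA3 PNs (adjusted p = 0.0049), 1.06 ± 0.12 for CA1 PNs over DGCs (adjusted p = 3.1e-09) and 0.64 ± 0.12 for CA3 PNs over DGCs (adjusted p = 2.7e-05). It was the only member called in all 3 pairs of populations in all 4 groups.

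Cacng3, a TARP of forebrain, varied most among the TARPs in CA1 PNs. Its 2N ChN levels were 6.87 to 136 CPM in CA1 PNs (median 91.4), 44.1 to 82.5 CPM in CA3 PNs (median 68.5) and 37.8 to 51.8 CPM in DGCs (median 46.0). The lowest CA1 value, that of mouse 17-21, was under every library of the other populations. The LFCs of 0.27 ± 0.34 over CA3 PNs (adjusted p = 0.65) and 0.83 ± 0.36 over DGCs (adjusted p = 0.091) were not called with all libraries. They were called in 1 of 4 groups over CA3 PNs (0 of 4 with mouse as a block) and in 2 of 4 over DGCs. Without the CA1 library of mouse 17-21 they were 0.49 (adjusted p = 0.0051) and 1.06 (adjusted p = 4.6e-08), both called.

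Of the cornichons, Cnih2, which favours surface delivery of the receptor, was highest in CA1 PNs. It ran from 163 to 300 CPM in CA1 PNs (median 193), 113 to 196 CPM in CA3 PNs (median 145) and 114 to 166 CPM in DGCs (median 130) of 2N ChN mice. LFCs of CA1 PNs were 0.52 ± 0.16 over CA3 PNs (adjusted p = 0.021) and 0.64 ± 0.16 over DGCs (adjusted p = 0.0034), and both were called in all 4 groups. CA3 PNs exceeded DGCs by 0.12 ± 0.16 (adjusted p = 0.57), and this difference was called in Ts ChN (LFC 0.40, adjusted p = 0.019) and Ts ChP (LFC 0.34, adjusted p = 0.031) but not in 2N ChP (LFC 0.06). The call over CA3 PNs was lost without the CA1 library of mouse 17-172 or of 17-21 (adjusted p of at most 0.060).

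Cnih3, the close homolog of Cnih2, ran the other way, and in 2N ChN it had the largest difference of all members. In 2N ChN mice it stood at 88.3 to 126 CPM in DGCs (median 95.5), at 1.15 to 10.01 CPM in CA1 PNs (median 5.51) and at 0 to 4.92 CPM in CA3 PNs (median 2.14). No CA1 or CA3 library reached the DG range. The LFC was -4.22 ± 0.26 for CA1 PNs against DGCs (adjusted p = 1.7e-15) and -5.15 ± 0.26 for CA3 PNs against DGCs (adjusted p = 6.1e-18), and it was -4.22 to -2.65 and -5.15 to -3.81 over the 4 groups. These low levels rest on few reads, a median of 10 counts in CA1 PNs and 7.5 in CA3 PNs over all libraries, against 97.0 in DGCs. CA1 PNs exceeded CA3 PNs by 0.93 ± 0.40 (adjusted p = 0.096), which was called (adjusted p down to 0.024) without the CA1 library of mouse 17-21 or the CA3 library of 17-172. This pair was called in 1 of the 4 groups. A single library each of CA1 PNs and CA3 PNs had a count of 0, which allows up to 3 counts.

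Shisa9 was likewise highest in DGCs. Its 2N ChN levels were 126 to 181 CPM in DGCs (median 155), 9.35 to 52.7 CPM in CA1 PNs (median 11.2) and 3.27 to 9.38 CPM in CA3 PNs (median 6.29). The DG range overlapped neither of the others. LFCs were -3.01 ± 0.30 for CA1 PNs against DGCs (adjusted p = 2.6e-07), -4.59 ± 0.33 for CA3 PNs against DGCs (adjusted p = 1.7e-09) and 1.59 ± 0.40 for CA1 PNs over CA3 PNs (adjusted p = 0.0063). Shisa9 was called against DGCs in all 4 groups for both pyramidal populations, and between CA1 PNs and CA3 PNs in 3 of 4 (2 of 4 with mouse as a block). In the other 3 groups the LFC of CA3 PNs against DGCs was larger in size for Shisa9 (-5.13 in 2N ChP, -4.85 in Ts ChN and -4.46 in Ts ChP) than for Cnih3 (-4.37, -4.45 and -3.81). The difference between the 2 genes was not tested. The CA3 library of mouse 15-140, with its dentate markers, also had the highest Shisa9 (18.9 CPM) of all CA3 libraries.

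**Figure D3:**
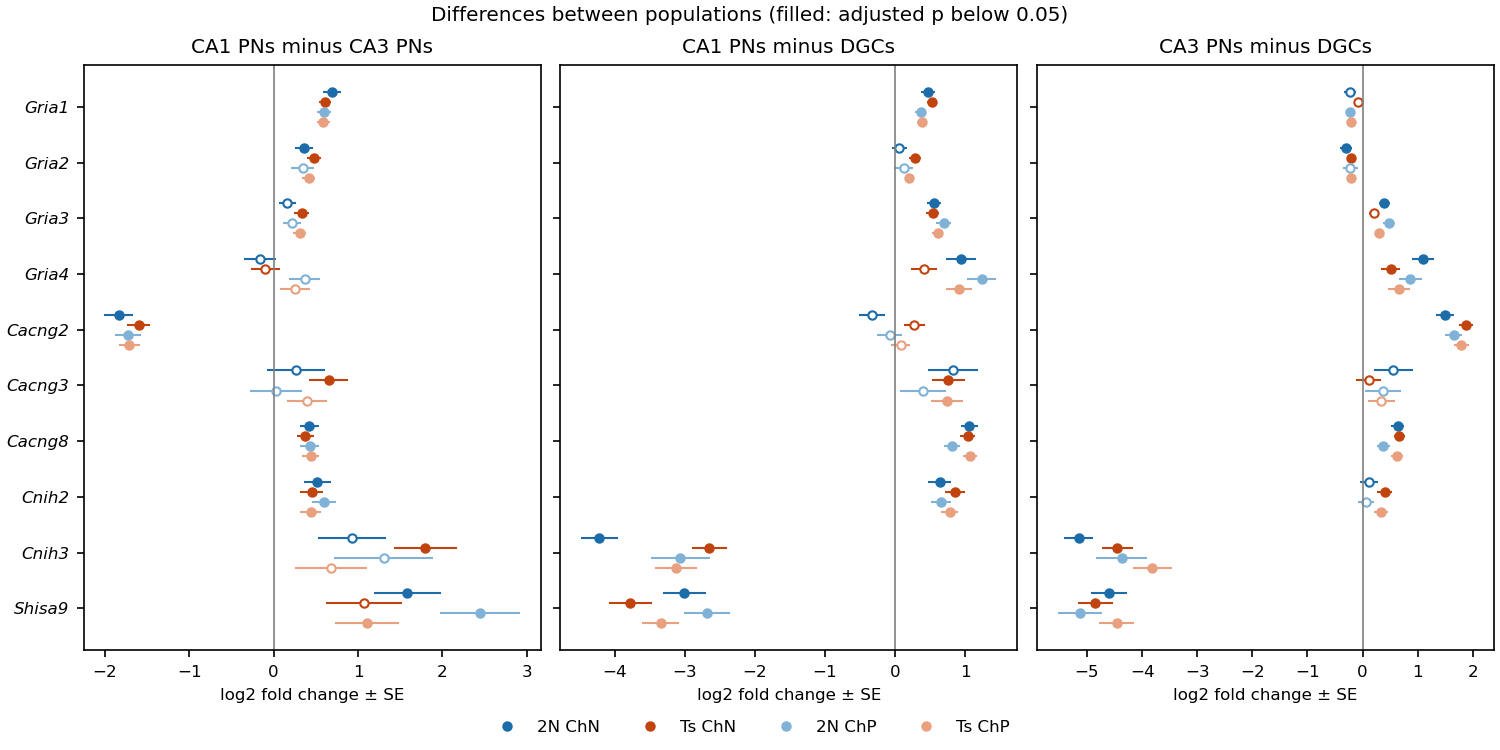
LFC ± SE of each member between pairs of populations in the 4 genotype and diet groups, with filled points for an adjusted p under 0.05. Cnih3 and Shisa9 lie between -5.15 and -2.65 against DGCs, and Cacng2 separates CA3 PNs from both other populations.

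Within CA1 PNs, the 10 libraries rich in CA2 markers and the other 17 held different levels of several members, which is given as a description without a test. Gria1 stood at 1328 to 2176 CPM in the CA2-rich libraries and 2011 to 2733 CPM in the others, and Gria2 at 905 to 1729 and 1681 to 2084 CPM. Cacng3 ran from 6.87 to 97.3 CPM in the CA2-rich libraries and from 69.1 to 136 CPM in the others. Shisa9 went the other way, at 11.9 to 52.7 CPM against 3.52 to 15.3 CPM, as did Gria4 at 34.6 to 80.3 against 23.5 to 51.5 CPM and Cnih2 at 196 to 336 against 154 to 267 CPM. Cnih3 had a median of 3.68 CPM in the CA2-rich libraries and 15.6 CPM in the others. Cacng8 had medians of 169 and 171 CPM. Mitochondrial genes took 7.06% to 12.2% of the counts in the CA2-rich libraries and 4.64% to 7.49% in the others. The mean log2 CPM of oligodendrocyte precursor markers was 2.71 to 4.01 against 1.48 to 3.15, that of inhibitory neuron markers 4.33 to 5.13 against 3.60 to 4.56, of astrocyte markers 4.44 to 5.04 against 4.03 to 4.78, of oligodendrocyte markers 3.77 to 5.08 against 3.41 to 4.50 and of vascular markers 2.36 to 3.28 against 2.02 to 2.79. Their part in the differences between these libraries was not tested.

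Without those libraries, which left 4 CA1 libraries of 2N ChN, several calls moved. Cacng3 was then higher in CA1 PNs than in CA3 PNs (LFC 0.53 ± 0.15, adjusted p = 0.0033) and than in DGCs (LFC 1.13 ± 0.16, adjusted p = 1.3e-08), and it was called in all 4 groups for both pairs. Gria2 was higher in CA1 PNs than in DGCs by 0.20 ± 0.07 (adjusted p = 0.028). The call of Shisa9 between CA1 PNs and CA3 PNs was lost (LFC 0.68 ± 0.28, adjusted p = 0.064), as was that of Cnih2 (LFC 0.37 ± 0.18, adjusted p = 0.14), and each was then called in 1 of 4 groups. Between CA1 PNs and CA3 PNs, Gria2 went from 3 to 4 called groups, Gria3 from 2 to 3 and Cnih3 from 1 to 3. For CA3 PNs against DGCs, which share the fit, Gria2 and Gria3 went from 3 to 4, Cacng3 from 0 to 2 and Cnih2 from 2 to 1. The lower Shisa9 level of CA1 PNs against DGCs grew to -3.89 ± 0.19. Members called in all 4 groups went from 4 to 5 between CA1 PNs and CA3 PNs, from 6 to 8 for CA1 PNs against DGCs, and from 5 to 7 for CA3 PNs against DGCs.

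**Figure D4:**
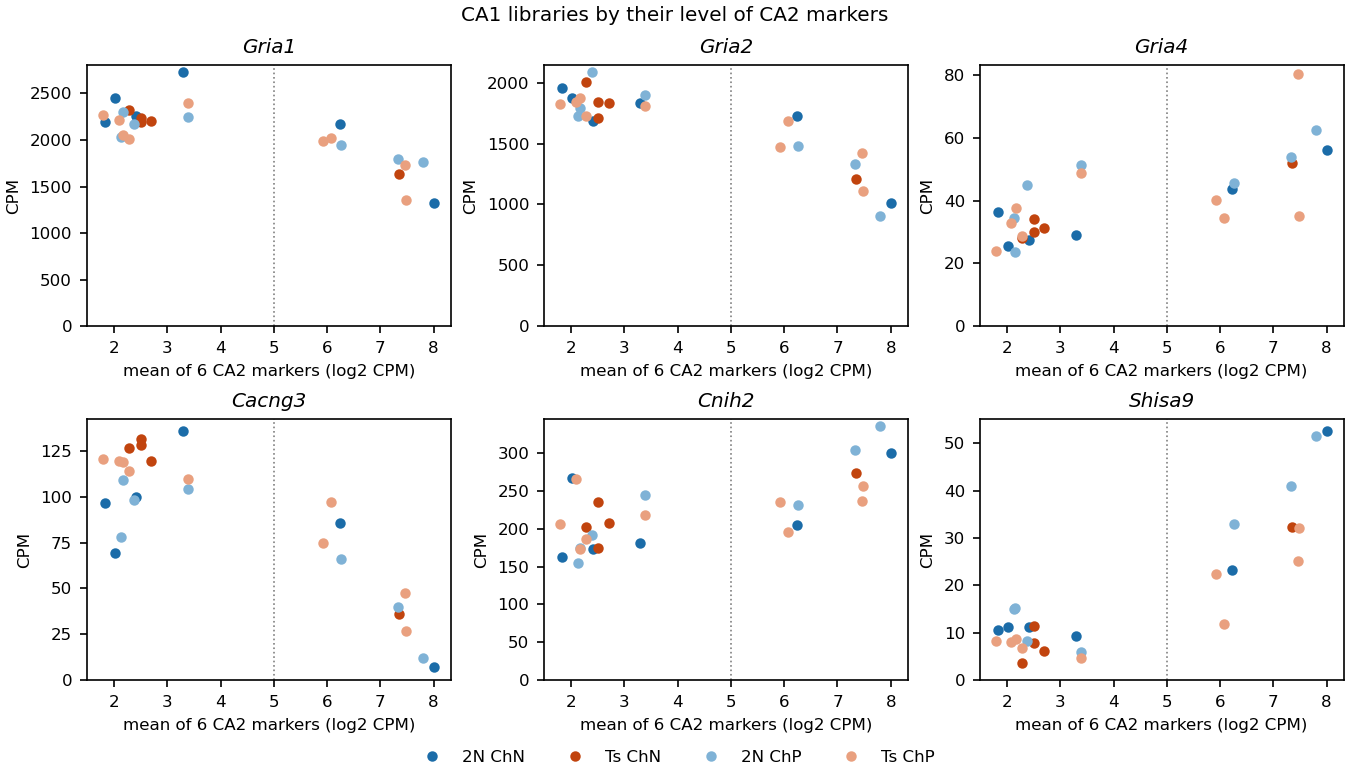
CPM of 6 members in each CA1 library against the mean log2 CPM of 6 CA2 markers, coloured by genotype and diet, with a dotted line at 5, above which a library was taken as rich in them. The 10 libraries right of the line have lower Gria1, Gria2 and Cacng3 and higher Shisa9 than most of the other 17.

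Other proteins of the pathway also differed between populations in 2N ChN libraries. Of 21 further auxiliary and assembly proteins tested, CA1 PNs had 7 at a higher and 4 at a lower level than CA3 PNs, and 9 at a higher and 5 at a lower level than DGCs. CA3 PNs had 10 at a higher and 5 at a lower level than DGCs. Of all genes 23.3%, 34.3% and 43.7% were called in these comparisons. The median LFCs of the list were 0.21, 0.37 and 0.34 in that order, against -0.0004, -0.03 and -0.04 over all genes. Gsg1l, a further auxiliary subunit, was much lower in CA3 PNs than in CA1 PNs (LFC of CA1 PNs over CA3 PNs 4.80 ± 0.40) and than in DGCs (LFC of CA3 PNs against DGCs -6.96 ± 0.33). Nptxr, the neuronal pentraxin receptor, was highest in CA3 PNs, with an LFC of -2.80 ± 0.11 for CA1 PNs against CA3 PNs. Shisa6, a relative of Shisa9, was higher in CA1 PNs (LFC 1.27 ± 0.11) and CA3 PNs (LFC 1.04 ± 0.10) than in DGCs, where Shisa9 was lower in both than in DGCs.

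Among 18 scaffold and trafficking proteins, CA1 PNs had 3 at a higher and 7 at a lower level than CA3 PNs (median LFC -0.21), and 8 at a higher and 3 at a lower level than DGCs (median LFC 0.0062). CA3 PNs had 10 at a higher and 4 at a lower level than DGCs (median LFC 0.38). The shares and medians over all genes are those just given for the auxiliary list. Akap5, which anchors kinases and phosphatase near Gria1 protein, was higher in CA1 PNs than in CA3 PNs (LFC 1.05 ± 0.11) and DGCs (LFC 1.16 ± 0.11). Grip1, a binding partner of GluA2 and GluA3, stood below its CA3 level in CA1 PNs (LFC -1.31 ± 0.20). Of the 3 RNA editing enzymes, CA1 PNs had 2 at a lower level than CA3 PNs and 2 at a lower level than DGCs, and CA3 PNs had 1 at a higher and 1 at a lower level than DGCs. Adarb1, which edits the Gria2 Q/R site, stood below its CA3 level in CA1 PNs (LFC -0.94 ± 0.27, adjusted p = 0.018). Adar, a further adenosine deaminase, had its lowest level in CA1 PNs, against CA3 PNs (LFC -0.69 ± 0.12, adjusted p = 1.5e-05) and DGCs (LFC -0.37 ± 0.12), and was higher in CA3 PNs than in DGCs (LFC 0.31 ± 0.11). Adarb2 was much lower in CA1 PNs (LFC -3.80 ± 0.29) and CA3 PNs (LFC -4.11 ± 0.27) than in DGCs.

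The genotype comparison, Ts against 2N within a population and diet, was the main question of the study, and a gene was taken as a DEG at an unadjusted p under 0.05 as in its methods. In ChN mice 2 of 10 members were DEGs in CA1 PNs (3.77% of all genes). CA3 PNs had 2 (9.20% of all genes) and DGCs 3 (8.50%). The median LFC of the members was 0.0027, 0.0065 and -0.0067, against -0.01, -0.0004 and 0.0026 over all genes. By edgeR no member had an adjusted p under 0.05 in any population, and by DESeq2 and limma-voom none did either. The LFCs of Gria1, Gria2, Gria3 and Cacng8 lay between -0.20 and 0.07 in all 3 populations. Over all 10 members LFCs ran from -0.70 to 1.57 in CA1 PNs, -0.20 to 0.74 in CA3 PNs and -0.19 to 0.46 in DGCs.

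Cnih3 had the largest genotype difference in CA1 PNs. The 6 libraries of 2N ChN mice held 1.15, 3.34, 4.80, 6.23, 6.33 and 10.01 CPM, and the 5 of Ts ChN mice 3.93, 11.1, 16.7, 23.7 and 28 CPM. Of the Ts libraries, 4 were above every 2N library, and the exception was the CA2-rich library of mouse 16-357. These values rest on 1 to 9 counts in 2N and 5 to 27 counts in Ts libraries. The LFC was 1.57 ± 0.46 (adjusted p = 1.0), and it kept an unadjusted p under 0.05 in all 11 fits with a library left out and in all 8 alternatives. The adjusted p was 0.038 (LFC 1.66) without the CA2-rich libraries, which left 4 libraries of each genotype, and 0.031 (LFC 1.58) with no filter on low counts. In ChP mice the LFC was -0.05, with 0 to 39.0 CPM in 2N and 1.53 to 26.3 CPM in Ts libraries.

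Cacng2 was a DEG in both pyramidal populations of ChN mice. In CA1 PNs the 2N libraries held 22.8, 26.3, 28.8, 31.2, 32.5 and 45.7 CPM and the Ts libraries 35.3, 37.8, 39.6, 47.9 and 56.3 CPM. All Ts libraries were above every 2N library other than that of mouse 17-154, whose triplicated genes stood in the Ts range. The LFC was 0.44 ± 0.19 (adjusted p = 1.0), and 0.60 without that library, where it stayed a DEG. In CA3 PNs 2N libraries ran from 97.2 to 149 CPM (median 107) and Ts libraries from 125 to 142 CPM (median 131), with an LFC of 0.21 ± 0.09 (adjusted p = 0.48). The highest 2N library was that of mouse 15-145, and with that library under its own Ts label the LFC was 0.33 (adjusted p = 0.19). The CA1 call was kept in 5 of 11 fits with a library left out and lost without the library of mouse 16-490, 17-173, 15-147, 17-172, 17-21 or 17-56 (p of at most 0.12). The CA3 call was kept in 6 of 12 and lost without that of 17-153, 17-192, 15-147, 17-154, 17-172 or 17-56 (p of at most 0.11), and with DESeq2, limma-voom and a surrogate variable. In DGCs the LFC was -0.16, and the difference in genotype effect between CA1 PNs and DGCs was 0.60 ± 0.24 (adjusted p = 0.86).

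Gria3 was lower in CA3 PNs of Ts ChN mice. The 2N libraries ran from 259 to 351 CPM (median 314) and the Ts libraries from 232 to 308 CPM (median 265), and the ranges overlapped. The LFC was -0.20 ± 0.08 (adjusted p = 0.34). It was no DEG with the library of mouse 15-145 as Ts (LFC -0.15), nor without that of 17-173 or 17-21 (p of at most 0.052). Summed inhibitory markers moved with this contrast, from 147 to 412 CPM (median 274) in 2N to 130 to 176 CPM (median 160) in Ts libraries of CA3 PNs, and their part in the Gria3 and Cacng2 differences there was not tested.

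In DGCs of ChN mice Cacng3 was a DEG with a higher level in Ts libraries. The 2N libraries held 37.8 to 51.8 CPM (median 46.0) and the Ts libraries 52.3 to 76.6 CPM (median 60.3). The LFC was 0.45 ± 0.13 (adjusted p = 0.13), with p under 0.05 in all 12 fits with a library left out and all 7 alternatives. In ChP mice the LFC was -0.01, with 2N at 19.6 to 71.0 CPM and Ts at 42.5 to 74.1 CPM. The genotype by diet interaction was -0.46 ± 0.20 (adjusted p = 1.0), past the unadjusted threshold apart from the fit without the DG library of mouse 17-157 (p of at most 0.054) and that with limma-voom.

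Gria2 and Gria4 moved in opposite directions in DGCs of Ts ChN mice. Gria2 was no DEG in CA1 PNs or CA3 PNs here. The paper, whose model held covariates not used here, reports it as lower in CA3 PNs and DGCs and not significantly so in CA1 PNs. Gria2 ran from 1389 to 1828 CPM in 2N (median 1516) and from 1232 to 1483 CPM in Ts libraries (median 1417), with an LFC of -0.19 ± 0.06 (adjusted p = 0.18) that kept p under 0.05 in all 12 fits with a library left out. Gria4 ran from 14.7 to 23.1 CPM in 2N (median 19.0) and from 18.1 to 36.7 CPM in Ts libraries (median 25.1), with an LFC of 0.46 ± 0.20 (adjusted p = 0.51) that kept it in 10 of 12 and lost it without that of mouse 17-157 or 15-147 (p of at most 0.12). Summed inhibitory markers were 204 to 261 CPM in 2N and 199 to 287 CPM in Ts libraries of this group. Summed astrocyte markers were 169 to 218 CPM (median 197) in 2N and 186 to 262 CPM (median 214) in Ts libraries. Their mean log2 CPM was 4.22 to 4.44 (median 4.26) in 2N and 4.07 to 4.85 (median 4.60) in Ts libraries. The part of these markers in the Gria2, Gria4 and Cacng3 differences in DGCs of ChN mice was not tested. The genotype effect on Gria4 differed between CA3 PNs and DGCs by -0.60 ± 0.27 (adjusted p = 0.94).

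**Figure D5:**
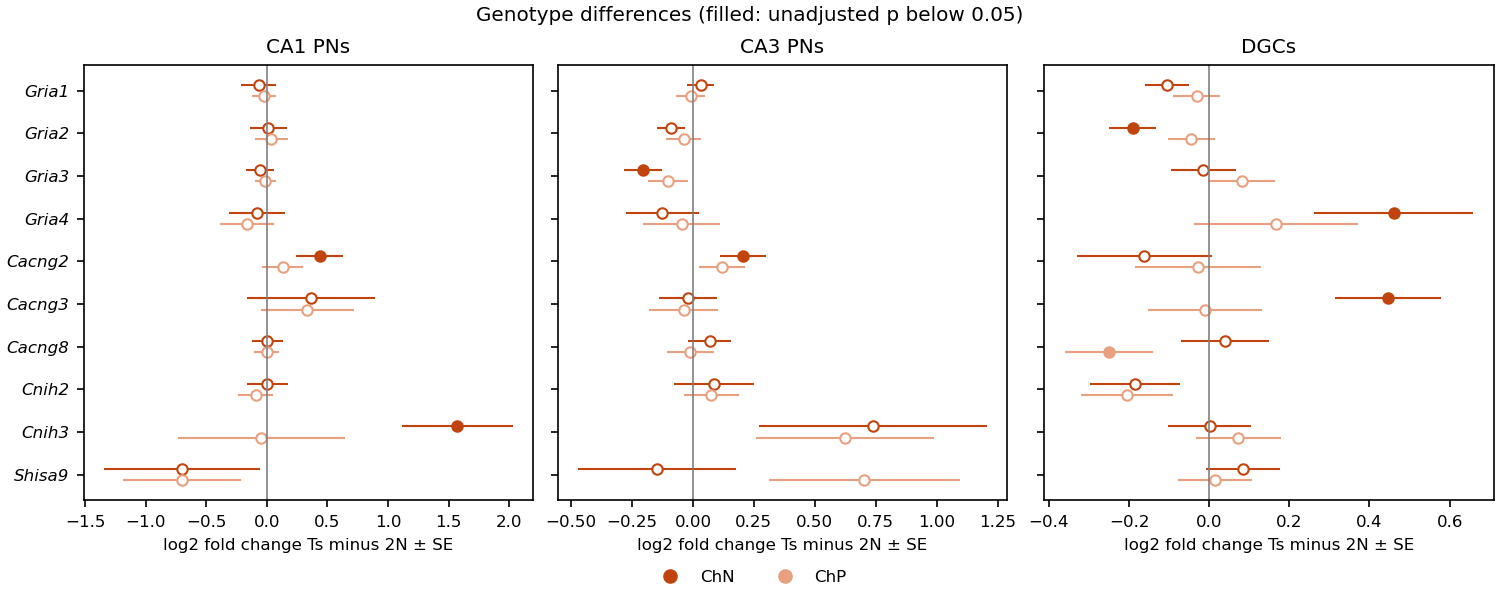
LFC ± SE of Ts against 2N for each member in the 3 populations, in ChN and ChP mice, with filled points for an unadjusted p under 0.05. In ChN 7 points are filled and in ChP 1.

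In ChP mice no member was a DEG in CA1 PNs (3.60% of all genes) or CA3 PNs (4.99%), and 1 was in DGCs (7.60%). That member was Cacng8, with 83.3 to 113 CPM in 2N (median 91.0) and 62.0 to 106 CPM in Ts libraries (median 82.9), ranges that overlapped. Markers of other cells had higher medians in the Ts libraries of this contrast: summed inhibitory markers were 170 to 255 CPM (median 215) in 2N and 229 to 327 CPM (median 277) in Ts, and summed astrocyte markers 162 to 220 CPM (median 191) and 200 to 294 CPM (median 251). Their part in the Cacng8 difference was not tested. The Cacng8 LFC was -0.25 ± 0.11 (adjusted p = 0.53), against 0.04 in ChN mice. The call was kept in 11 of 16 fits with a library left out and lost without that of mouse 15-336, 16-90, 14-90, 15-140 or 15-198 (p of at most 0.097). The median LFC of the members was -0.02, -0.01 and -0.02 in the 3 populations, against 0.01, 0.0014 and 0.0083 over all genes. In CA3 PNs, Shisa9 ran from 0.96 to 9.70 CPM in 2N and 3.94 to 18.9 CPM in Ts libraries, the highest being that of mouse 15-140. Its genotype effect differed between CA1 PNs and CA3 PNs by -1.35 ± 0.63 (adjusted p = 1.0), and by -1.02, no longer past the unadjusted threshold, without that library and with mouse as a block.

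The other differences in genotype effect between populations were tested in the same way. In ChN mice 0 members differed between CA1 PNs and CA3 PNs (4.22% of all genes), 2 for CA1 PNs against DGCs (5.51%) and 1 for CA3 PNs against DGCs (5.18%). The second of the 2 was Cnih3, at 1.56 ± 0.44 (adjusted p = 0.64). In ChP mice 1 member differed between CA1 PNs and CA3 PNs (4.27%) and none in the other pairs (4.95% and 4.42%).

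The maternal diet, ChP against ChN, gave 1 DEG among the members of 2N mice, Gria2 in DGCs, and none in CA1 PNs or CA3 PNs. Over all genes the share was 5.82% in DGCs. It was 4.90% in CA3 PNs and 3.27% in CA1 PNs. Gria2 stood at 1389 to 1828 CPM on ChN and 1204 to 1662 CPM on ChP, with an LFC of -0.14 ± 0.06 (adjusted p = 0.83). The call was lost in 5 of 28 fits with a library left out, those of mice 15-147, 17-154, 15-334, 15-336 and 16-273 (p of at most 0.15), with DESeq2, with library totals and with 1 genotype in the fit. This comparison and the ChN genotype comparison share the 2N ChN libraries. Ts mice had 0 DEGs among the members in any population (3.05%, 4.19% and 3.81% of all genes). The interaction of genotype and diet had p under 0.05 for 0 members in CA1 PNs (3.22%) and CA3 PNs (4.87%) and for 1, Cacng3, in DGCs (3.97%). By edgeR, no member passed an adjusted p of 0.05 in any diet or interaction test, and that held with DESeq2 and limma-voom.

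Subunit shares did not differ detectably by genotype. Over 24 exact permutation tests (two-sided) the smallest p was 0.076, for Gria4 in DGCs of ChN mice, where its share was 0.72% in 2N and 1.01% in Ts libraries, and the smallest adjusted p was 0.94. The Gria1 share in CA3 PNs of ChN mice was 37.3% in 2N and 39.9% in Ts libraries (exact permutation p = 0.095). Of the other pathway lists, 1 gene passed an adjusted p of 0.05 between genotypes, Prrt2, a proline-rich transmembrane protein found with AMPA receptors, in DGCs of ChP mice (LFC 0.32 ± 0.07, adjusted p = 0.010), where 0.445% of all genes passed.

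The genes most like each subunit were taken by Pearson r over the 12 group means of log2 CPM, among 7646 genes. These means share libraries of the same mice and are dominated by the 3 populations, so r is a description. Gria1 was closest to Grin2a (r = 0.995), an NMDA receptor subunit, then Sorl1 (0.991) and Ttc9 (0.989). Gria2 was closest to Pik3c2b (0.988), Zeb2 (0.978) and Nae1 (0.969). Gria3 was closest to Kifc3 (0.989), Dmd (0.980) and Erbb4 (0.980), and Gria4 to Atp5f1c (0.975), Cox5a (0.973) and Ubr3 (0.972).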

How the data were processed

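RNA-seq libraries of the SMARTer Stranded Total RNA-Seq Pico v3 kit were made from LCM captures of CA1 PNs, CA3 PNs and DGCs. Per the labels and methods, the authors checked reads with FastQC 0.11.9, trimmed them with Trimmomatic 0.39 where needed, aligned them with STAR to Gencode GRCm39 (mm10 is also named in the submitters' processing notes) and quantified genes with RSEM. The deposited values are RSEM expected counts per gene, not normalized, and TPM from the same files per library; the 81 matrix columns equal those files. RSEM divides reads between genes that match alike.

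Expected counts were rounded to whole numbers, and a gene was kept where 10 or more libraries of a fit exceeded 0.1 CPM. The test was the quasi-likelihood F test of edgeR 4.0.16 under R 4.3.3 (TMM, estimateDisp, robust glmQLFit, glmQLFTest, two-sided), with Benjamini-Hochberg adjustment over all genes. In fits of fewer than 10 libraries, all but 1 had to pass the filter. Populations were compared at an adjusted p under 0.05 and genotypes and diets at p under 0.05 without adjustment, the study's threshold, whose covariates were not used here. SE is |LFC| divided by the square root of F. Levels between genes used TPM, and levels between libraries used TMM-scaled CPM over all 81 libraries. Shares were tested with exact permutation tests. Total expected counts of 358355 to 4744036 per library set the precision; floors of 3 counts cover counting error only. In the genotype and diet fits each mouse gave a single library, so their p-values compare mice. The main population fits and those of differences in genotype effect took libraries of the same mouse as independent. Their p-values therefore compare libraries and leave out the pairing by mouse.

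The members, lists and tests were chosen with earlier results of these data known. All 10 members were tested in every comparison. In genotype, diet and interaction comparisons those past the unadjusted threshold are named, and the others only in part. Of the other lists, at most 4 genes per list and comparison with an adjusted p under 0.05 could be named, and 3 genes per subunit for likeness among genes of a mean log2 CPM of at least 4. Alternatives were DESeq2 1.42.0, limma-voom (limma 3.58.1), library totals, no filter on low counts, filterByExpr (minimum count 10), 1 surrogate variable (sva 3.50.0), both diets or 1 genotype in the fit, the CA3 library of 15-145 taken as Ts, mouse as a block, shares without length and each library left out. Leaving out the CA2-rich CA1 libraries, leaving out the CA3 library of mouse 15-140, and shares at a fixed effective length were chosen after seeing the data. The code was tested on simulated data.

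The libraries of a mouse come from 1 animal and are therefore paired across populations. Over 7647 genes their residuals had a median correlation of 0.10 in 78 pairs, against -0.02 in 480 pairs of different mice. Mouse was a block only as an alternative, since the study's methods name none. Sequences were read from GRCm39 with Gencode canonical transcripts.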

Additional observations from a re-analysis of the deposited data

Results flagged for a closer look

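Of 120 pairs of a member and a group of 4 to 10 libraries, 13 held a library whose gap to the rest passed Dixon's 95% value, where chance gives about 1 in 20. The CA1 library of Ts ChN mouse 16-357 stood apart for 4 members. It had 1635 CPM of Gria1, against 2197 to 2321 in the other 4, and 36.2 CPM of Cacng3, against 120 to 132. It also had 51.9 CPM of Gria4, against 28.2 to 34.2, and 32.3 CPM of Shisa9, against 3.52 to 11.4. The CA1 library of 2N ChN mouse 17-21 had 1008 CPM of Gria2, against 1681 to 1957 in the other 5, and 52.7 CPM of Shisa9, against 9.35 to 23.2. The CA1 library of Ts ChP mouse 15-199 had 80.3 CPM of Gria4, against 24.1 to 48.9. All 3 are among the CA1 libraries rich in CA2 markers.

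The CA3 library of Ts ChP mouse 15-140, which also held dentate markers, had 18.9 CPM of Shisa9, against 3.94 to 7.37 in the rest of its group. In other CA3 libraries of Ts ChP mice, Gria2 stood low at 1074 CPM in mouse 15-36, and Cacng3 high at 103 CPM in mouse 15-245. In DGCs of ChN mice, Cnih2 stood high at 168 CPM in Ts mouse 16-357, Shisa9 at 207 CPM in Ts mouse 17-157 and Cnih3 at 126 CPM in 2N mouse 15-145.

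A genotype effect differed between diets or populations at an unadjusted p under 0.05 for 5 results, none of which passed adjustment over all genes. The genotype by diet interaction of Cacng3 in DGCs was -0.46 (edgeR, adjusted p = 1.0). In ChN mice the genotype effect in CA1 PNs exceeded that in DGCs by 0.60 for Cacng2 (adjusted p = 0.86) and by 1.56 for Cnih3 (adjusted p = 0.64), and that of Gria4 differed between CA3 PNs and DGCs by -0.60 (adjusted p = 0.94). In ChP mice the effect on Shisa9 differed between CA1 PNs and CA3 PNs by -1.35 (adjusted p = 1.0).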

How the results depend on the processing

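No member changed sign while called under any alternative that was run. The number of members called between genotypes in CA1 PNs of ChN mice was 0, and 1 with no filter on low counts and 1 without the CA2-rich libraries. Between CA1 PNs and CA3 PNs of 2N ChP mice 5 members were called, and 9 without the CA2-rich libraries. Of the 12 share tests between populations 0 passed, and 6 passed with no replicate block, that is without pairing by mouse. With mouse as a replicate block, counts of called members stayed within 1.5 times of the unblocked ones in the population comparisons. The block added the calls of Gria1 in 2N ChN (CA3 PNs and DGCs, adjusted p = 0.0498 by edgeR), of Gria2 in 2N ChP (0.0025 for CA1 PNs and CA3 PNs, 0.021 for CA3 PNs and DGCs) and of Gria3 in Ts ChN (CA3 PNs and DGCs, 0.038). It ended those of Cacng3 in Ts ChN (0.069) and Shisa9 in Ts ChP (0.13) between CA1 PNs and CA3 PNs, and of Shisa9 in the difference of genotype effects, and changed no other call of a member. With single libraries left out, the counts in 2N ChN ran from 5 to 7 (CA1 PNs and CA3 PNs), from 7 to 8 (CA1 PNs and DGCs) and from 6 to 9 (CA3 PNs and DGCs), and all genotype, diet and interaction counts at an adjusted p under 0.05 stayed at 0. Library totals in place of TMM moved the median LFC of all genes by -0.14 between CA1 PNs and DGCs and by -0.20 between CA3 PNs and DGCs of 2N ChN mice. Members with few counts, Cnih3 and Shisa9 in pyramidal neurons above all, are the least precise.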
